A study of Rattus norvegicus with 8 samples.

Results

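The genes described here cycle calcium through the sarcoplasmic reticulum of heart muscle cells: Atp2a2, Pln, Ryr2, Casq2, Slc8a1, Trdn, Jph2, Hrc, Cacna1c and Asph. They were measured by the 26 probe sets annotated to exactly 1 of these 10 gene symbols, out of 31042 probe sets (14217 genes) that are not controls. A probe set is the group of short probes whose summary is 1 measurement of a transcript on an Affymetrix array. Of the 26, 24 passed the filter on dim probe sets (a mean log2 signal at or above the 40th percentile) and were tested among 18625, with every gene represented, and the other 2 are given by their values.

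RNA came from hearts of female Norway Brown rats aged 18 to 22 months, in 4 groups of 2 arrays, with total RNA of 3 hearts pooled on each array. Sham rats were opened and closed with their ovaries in place, and the other 3 groups were ovariectomized. For the ovariectomy group no pellet is named. The early group received a pellet of 0.5 mg of 17-β estradiol, releasing over 90 days, at surgery, and the late group received the same pellet 9 weeks after surgery. The design asks whether loss of the ovaries, and estradiol begun at once or late, changes expression in the old heart. A pool averages its 3 animals and a group has 2 pools, so p-values measure only the spread between pools, which may be technical, and whether a heart entered both pools is not given. RNA of the whole tissue was measured, so fewer cells of a type and less RNA per cell cannot be told apart.

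In a heart muscle cell, an action potential opens the L-type calcium channel, and the calcium that enters opens the ryanodine receptor of the sarcoplasmic reticulum, which releases far more. The pump SERCA2 returns calcium to the reticulum, held back by phospholamban until this is phosphorylated, and the sodium-calcium exchanger expels the rest. Slower return of calcium is a known feature of the old and the failing heart.

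No calcium cycling probe set passed the test in any comparison. After quantile normalization, which sets the signals of every array to the same distribution, the group means of the brightest probe sets of the pump and its brake differed by at most 0.06 on the log2 scale. Among the brightest probe sets of the 10 genes on that scale, all 60 pairwise differences were under 1.5-fold, and 44 of them were smaller than 0.2. With the deposited signals scaled instead to cardiomyocyte markers on each array, an added alternative, 7 of the 60 reached 1.5-fold. These were Asph for late estradiol against sham (-0.92), early estradiol (-0.81) and ovariectomy (-0.65), Cacna1c for early estradiol against ovariectomy (0.65) and late against early (-0.62), and Ryr2 and Jph2 for late estradiol against sham (-0.61 each). None passed there either, with a lowest unadjusted p of 0.119 and adjusted p of 0.725 over the 60 (limma). The median of all probe sets tested was itself at -0.50 for late estradiol against sham on that scale, and relative to such medians none of the 60 reached 1.5-fold. The widest after quantile normalization were Asph, 1.33-fold lower with late estradiol than after ovariectomy, and Ryr2, 1.33-fold lower after ovariectomy than in sham. Neither passed. In limma with Benjamini-Hochberg adjustment, 0 of 24 member probe sets passed in each of the 6 pairwise comparisons and in the F test over the 4 groups, as did 0% of all 18625. In the F test 0 member probe sets had an unadjusted p under 0.05, against 1.86% of all. At an unadjusted p under 0.05 there was 1 member probe set, of Casq2 for late against early estradiol, where 3.87% of all probe sets had such a p. There was none in the other 5 comparisons, where 1.47% (ovariectomy against sham), 1.71% (early against ovariectomy), 4.36% (late against ovariectomy), 0.773% (early against sham) and 3.37% (late against sham) of all probe sets did.

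**Figure D1:**
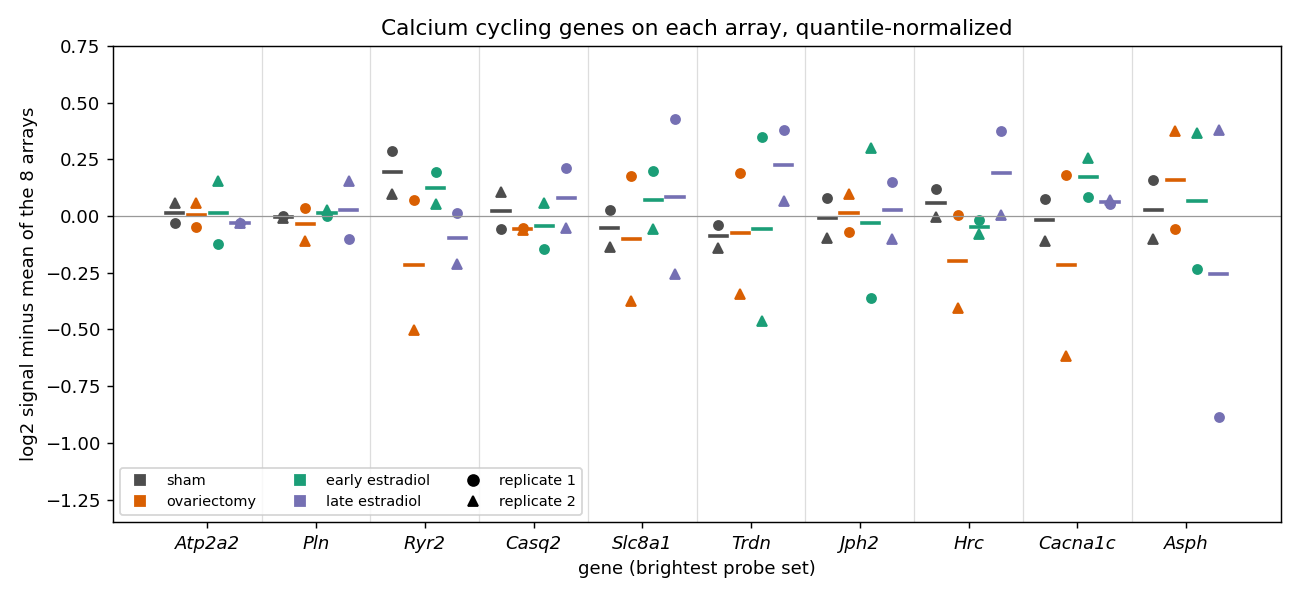
Log2 signal of the brightest probe set of each gene on each of the 8 arrays after quantile normalization, as its distance from the gene's mean over arrays; colours give groups, circles replicate 1, triangles replicate 2, and bars the group means of 2 arrays. Atp2a2 and Pln stay within 0.28 and 0.26 from the lowest to the highest array, while ovariectomy replicate 2 is low for Ryr2, Hrc and Cacna1c and late estradiol replicate 1 is low for Asph.

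Before normalization replicate 1 of each group was dimmer than replicate 2: the 2% trimmed mean signal lay between 28.2 and 70.0 for the former and between 104.2 and 137.5 for the latter. The lowest was late estradiol replicate 1, where the 3' probes of Gapdh gave 2.70 times the signal of its 5' probes, a measure of how intact the RNA was, while the other 7 arrays gave 1.26 to 1.65. The same ratio for actin was highest on ovariectomy replicate 2, at 3.06, and late replicate 1, at 3.01, against 1.71 to 2.75 elsewhere. Log2 values below are quantile-normalized unless another scale is named, and each ± value on a difference is limma's moderated standard error with n = 2 arrays a group. The 9 measured markers of cardiomyocytes, among them Myh6, Tnnt2 and Tnni3, were bright on all arrays, and their summed normalized signal was 52496 to 57716. They lie at percentiles 99.48 to 99.98 of brightness, where quantile normalization leaves this sum little room to differ. The sum therefore does not show whether the share of cardiomyocytes differed between arrays. The summed signal of 8 macrophage markers was 666 to 1527 on 7 arrays and 2089 on ovariectomy replicate 2. That of 7 fibroblast markers was 4914 and 4532 in sham, 5901 and 6181 after ovariectomy, 5987 and 4912 with early estradiol and 3262 and 4139 with late estradiol, so that both late arrays were the lowest. Of 7 skeletal muscle markers, Myh1 was bright on all arrays (11.70 to 12.29). Its probe set is of a design that can bind related transcripts, so this signal does not by itself show skeletal myosin. Whether it bound a cardiac myosin such as Myh6 was not tested. Mybpc2 and Myh2 passed the filter with dimmer signals, and Myh4, Tnnt3, Actn3 and Ryr1 were below it.

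Atp2a2 encodes SERCA2, the pump that refills the sarcoplasmic reticulum, and had 5 probe sets. The brightest, 1369065_a_at, read 12.95 and 13.04 in sham, 12.93 and 13.04 after ovariectomy, 12.85 and 13.13 with early estradiol, and 12.95 and 12.95 with late estradiol. The groups overlapped throughout, and the 2 early arrays held both the lowest and the highest value. Its 6 differences ran from -0.05 to 0.01, each ± 0.14. The 95% intervals of all 6 lay between -0.35 and 0.31, which is 0.785 to 1.24 times the level of the other group.

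Quantile normalization limits what this probe set can show, because it replaces a signal by the value that belongs to its rank on the array. Atp2a2 held ranks 4 to 13 of 31042 on the 8 arrays, so that a change could appear only as a change of rank among the brightest transcripts. The deposited signals were therefore also read against the mean log2 signal of the 9 cardiomyocyte markers on the same array, an added calculation. On this scale, relative to the sham mean, Atp2a2 stood at 0.15 and 0.02 after ovariectomy, 0.03 and -0.04 with early estradiol, and 0.18 and -0.02 with late estradiol. The sham arrays stood at 0.03 and -0.03. The range of the group means was 0.086 on this scale, and limma gave an adjusted p of 1 in the F test. The range depends on the reference. Set against the median of all probe sets tested on the deposited scale, which was lower in the late than in the sham arrays, Atp2a2 had a range of 0.58 and Pln of 0.44, with an adjusted p of 1 for each in limma. With 1 array left out after quantile normalization, the range reached 0.18 for Atp2a2 (without early replicate 1) and 0.16 for Pln (without late replicate 1).

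The second probe set of Atp2a2, 1370426_a_at, read 9.52 and 9.68 in sham, 9.67 and 9.50 after ovariectomy, 9.74 and 9.59 with early estradiol and 9.73 and 9.34 with late estradiol. The third, 1398862_at, read 8.32 and 8.29 in sham, 7.79 and 9.12 after ovariectomy, 8.22 and 8.32 with early estradiol and 8.43 and 8.65 with late estradiol. The arrays of the ovariectomy group lay below and above all others there, a gap of 1.33 within the group that was wider than any gap between group means. The fourth, 1375164_at, was dimmer and read 5.62 and 5.02 in sham, 5.80 and 3.88 after ovariectomy, 5.30 and 4.56 with early estradiol and 5.52 and 4.74 with late estradiol. On it, replicate 2 was the lower array in every group. The fifth and dimmest, 1391771_at, read 4.29 and 4.23 in sham, 4.75 and 4.76 after ovariectomy, 4.12 and 3.81 with early estradiol and 4.51 and 4.93 with late estradiol.

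On that dimmest probe set no early array overlapped a sham, ovariectomy or late array. Early estradiol differed from ovariectomy by -0.79 ± 0.54, with a 95% interval of -1.99 to 0.41 and an unadjusted p of 0.17 in limma (adjusted p = 1). The interval spans both directions, and the other 4 probe sets differed by 0.01, 0.08, -0.19 and 0.10 in the same comparison. In each pairwise comparison, 2 or 3 of the 4 dimmer probe sets had the opposite sign to the brightest. The limma F test gave an adjusted p of 0.9997 for each of the 5 probe sets.

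**Figure D2:**
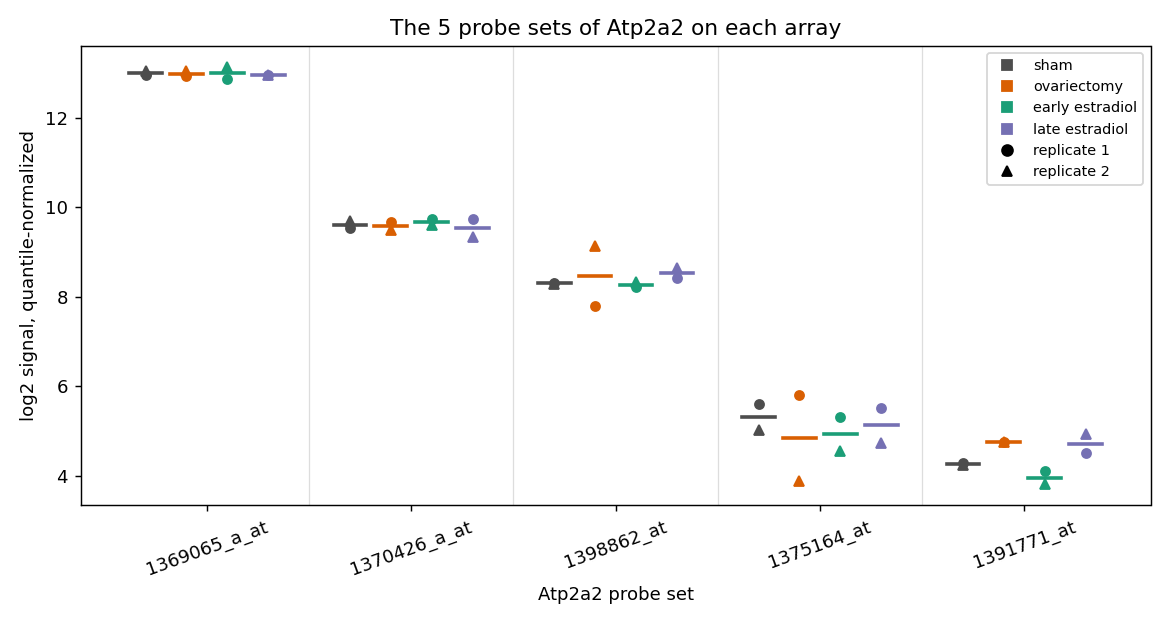
Normalized log2 signal of the 5 Atp2a2 probe sets on each array; colours give groups, circles replicate 1, triangles replicate 2, bars the means of 2 arrays. The brightest probe set spans 0.28 over the 8 arrays, and 1398862_at and 1375164_at span 1.33 and 1.92 with the widest gap inside the ovariectomy group.

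Pln encodes phospholamban, the small membrane protein that slows the pump. Its brightest probe set, 1370157_at, read 12.70 and 12.69 in sham, 12.74 and 12.59 after ovariectomy, 12.70 and 12.73 with early estradiol and 12.60 and 12.85 with late estradiol. The lowest value was on an ovariectomy array and the highest on a late array, and the other array of each of these groups lay on the far side of the sham values. The 6 differences ran from -0.03 to 0.06, each ± 0.14, with 95% intervals between -0.34 and 0.36. This probe set too is among the brightest, at ranks 13 to 33, and relative to the cardiomyocyte markers and the sham mean its group means were 0.02 after ovariectomy, 0.00 with early estradiol and -0.06 with late estradiol.

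The second Pln probe set, 1388876_at, read 12.28 and 12.05 in sham, 12.39 and 12.16 after ovariectomy, 12.55 and 11.86 with early estradiol and 12.59 and 12.36 with late estradiol. Late estradiol lay above sham on it without overlap, by 0.31 ± 0.22 and by 0.31 in each replicate number, with an adjusted p of 0.997 in limma. The third, 1384689_at, was dim and ran from 2.34 to 5.32 over the arrays.

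The balance of the pump and its brake was read on each array as log2 Pln minus log2 Atp2a2, from the brightest probe sets and relative to the sham mean. It was 0.05 and -0.05 in sham, 0.10 and -0.15 after ovariectomy, 0.14 and -0.11 with early estradiol and -0.05 and 0.20 with late estradiol. The group means lay between -0.02 and 0.07, inside the SD of 0.18 between the arrays of each ovariectomized group. An exact permutation test over all 105 ways to pair the arrays gave p = 0.886, two-sided in that it takes no direction, where the smallest p it allows is 0.00952. From the deposited signals, with no normalization, the same ratio was -0.01 and 0.01 in sham, -0.04 and -0.09 after ovariectomy, -0.01 and 0.00 with early estradiol and -0.46 and 0.17 with late estradiol. Late replicate 1 was thus the lowest array on that scale, the other late array was the highest, and the exact permutation test gave p = 0.876. After quantile normalization the range of the 4 group means was 0.10, 0.22 without ovariectomy replicate 1 and 0.27 without the 2 dimmest arrays.

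Ryr2 encodes the ryanodine receptor, the channel that releases calcium from the reticulum. Its brighter probe set, 1382088_at, read 11.86 and 11.67 in sham, 11.64 and 11.07 after ovariectomy, 11.77 and 11.63 with early estradiol and 11.59 and 11.37 with late estradiol. Both sham arrays lay above both ovariectomy arrays and both late arrays, and overlapped the early arrays. Ovariectomy differed from sham by -0.41 ± 0.19, with a 95% interval of -0.84 to 0.02, and by -0.22 in replicate 1 and -0.60 in replicate 2. The unadjusted p was 0.061 and the adjusted p 1 in limma. Early estradiol differed from ovariectomy by 0.34 ± 0.19 and late estradiol from sham by -0.29 ± 0.19, which did not pass either. These comparisons share arrays and are not separate evidence.

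The size of the Ryr2 difference turned on 1 array. Without ovariectomy replicate 2 it was -0.13 and without ovariectomy replicate 1 it was -0.68. The dimmer probe set, 1382775_at, went the other way on that array, with 7.83 and 7.17 in sham, 7.003 and 9.00 after ovariectomy, 7.65 and 7.23 with early estradiol and 7.92 and 7.29 with late estradiol. Ovariectomy replicate 2 is also the array with the highest macrophage marker signal and the highest 3' to 5' ratio of actin (3.06), while its ratio of Gapdh was 1.51. The part of these in the Ryr2 values was not tested.

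Casq2 encodes calsequestrin, the calcium buffer of the reticulum. Its brighter probe set, 1368988_at, read 11.48 and 11.64 in sham, 11.48 and 11.48 after ovariectomy, 11.39 and 11.59 with early estradiol and 11.75 and 11.48 with late estradiol, with overlap between all groups. Its 6 differences ran from -0.08 to 0.14, each ± 0.15, and the 95% intervals lay between -0.42 and 0.48. The other probe set, 1387401_at, read 9.83 and 10.11 in sham, 10.15 and 9.78 after ovariectomy, 10.22 and 10.34 with early estradiol and 9.49 and 9.85 with late estradiol. The early arrays were the highest 2 of the 8, and the late arrays lay below both of them.

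On 1387401_at late estradiol differed from early by -0.61 ± 0.20, a 1.53-fold lower level, with a 95% interval of -1.05 to -0.17. The difference was -0.73 in replicate 1 and -0.49 in replicate 2. In limma the unadjusted p was 0.012, the only member value under 0.05, and the adjusted p was 0.987. The brighter probe set of the same gene differed by 0.12 ± 0.15 in the opposite direction.

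Trdn encodes triadin, which ties calsequestrin to the ryanodine receptor. Its brightest probe set, 1370739_x_at, of a design that can bind related transcripts, read 8.46 and 8.36 in sham, 8.69 and 8.16 after ovariectomy, 8.85 and 8.04 with early estradiol and 8.88 and 8.57 with late estradiol. Both late arrays lay above both sham arrays, and the difference was 0.31 ± 0.29 (limma adjusted p = 0.997). The other 2 tested probe sets ranged from 6.63 to 7.71 (1370738_a_at) and from 4.94 to 6.68 (1370198_at). On 1371138_at, which was below the filter, the arrays ranged from 0.98 to 4.35.

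Asph encodes junctin, the partner of triadin, together with other products of the same gene, among them aspartyl hydroxylase, which a gene symbol does not separate. Its brightest probe set, 1379884_at, read 9.30 and 9.05 in sham, 9.09 and 9.52 after ovariectomy, 8.91 and 9.51 with early estradiol and 8.26 and 9.52 with late estradiol. A single array, late replicate 1, lay apart from the other 7, and the other late array was level with the highest. The second probe set, 1382060_at, showed the same array low, at 5.94 against 6.62 to 6.94 elsewhere, while the remaining ones, 1381046_at and 1393345_at, ran from 5.90 to 6.50 and from 4.69 to 6.04 without it standing apart. Late estradiol differed from ovariectomy by -0.41 ± 0.37 on the brightest, with -0.83 in replicate 1 and 0.00 in replicate 2. The low array is the one with the raised 3' to 5' ratio of Gapdh, and the part of this in the result was not tested.

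Jph2 encodes junctophilin, which holds the reticulum close to the cell membrane, and had 1 probe set. It read 9.41 and 9.24 in sham, 9.26 and 9.43 after ovariectomy, 8.98 and 9.64 with early estradiol and 9.49 and 9.23 with late estradiol. The group means lay within 0.05 of each other, the early arrays spanned all the rest, and the 95% intervals lay between -0.55 and 0.56.

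Hrc encodes the histidine-rich calcium-binding protein of the reticulum and had 1 probe set. It read 11.52 and 11.39 in sham, 11.40 and 10.99 after ovariectomy, 11.38 and 11.32 with early estradiol and 11.77 and 11.40 with late estradiol. Late estradiol differed from ovariectomy by 0.39 ± 0.18, with a 95% interval of -0.01 to 0.80, and by 0.37 in replicate 1 and 0.41 in replicate 2. The highest ovariectomy array and the lowest late array were both at 11.40 and overlapped narrowly. The unadjusted p in limma was 0.057 and the adjusted p 0.943. The size turned on single arrays: the difference was 0.19 without ovariectomy replicate 2, 0.20 without late replicate 1, 0.57 without late replicate 2 and 0.59 without ovariectomy replicate 1.

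At the cell membrane, Cacna1c encodes the pore of the L-type calcium channel. Its brighter probe set, 1370452_at, read 8.15 and 7.97 in sham, 8.26 and 7.46 after ovariectomy, 8.16 and 8.33 with early estradiol and 8.13 and 8.15 with late estradiol. Apart from ovariectomy replicate 2, the arrays spanned 7.97 to 8.33, and early estradiol differed from ovariectomy by 0.39 ± 0.26. Its second probe set, 1370451_a_at, was below the filter and read 2.14 and 1.85 in sham, 2.70 and 3.89 after ovariectomy, 5.06 and 4.57 with early estradiol and 4.06 and 3.09 with late estradiol. All 6 ovariectomized arrays lay above the sham arrays. In the fit with no filter, early estradiol differed from sham on it by 2.82 ± 0.93 (limma unadjusted p = 0.011, adjusted p = 1), and among all probe sets below the filter 13.3% were higher without overlap in that comparison, as were 14.8% for ovariectomy and 14.8% for late estradiol against sham. The brighter probe set differed by 0.19 there.

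Slc8a1 encodes the sodium-calcium exchanger. Its brighter probe set, 1372449_at, read 9.76 and 9.60 in sham, 9.91 and 9.36 after ovariectomy, 9.93 and 9.67 with early estradiol and 10.16 and 9.47 with late estradiol. Replicate 1 was the higher array in every group, and the group means lay within 0.18 of each other. The dim probe set, 1370588_a_at, passed the filter narrowly and read 1.59 and 3.83 in sham, 4.72 and 3.92 after ovariectomy, 3.94 and 4.66 with early estradiol and 3.27 and 4.03 with late estradiol. Ovariectomy differed from sham by 1.61 ± 0.94 on it, but by 3.13 in replicate 1 and 0.09 in replicate 2 (limma unadjusted p = 0.12, adjusted p = 1).

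**Figure D3:**
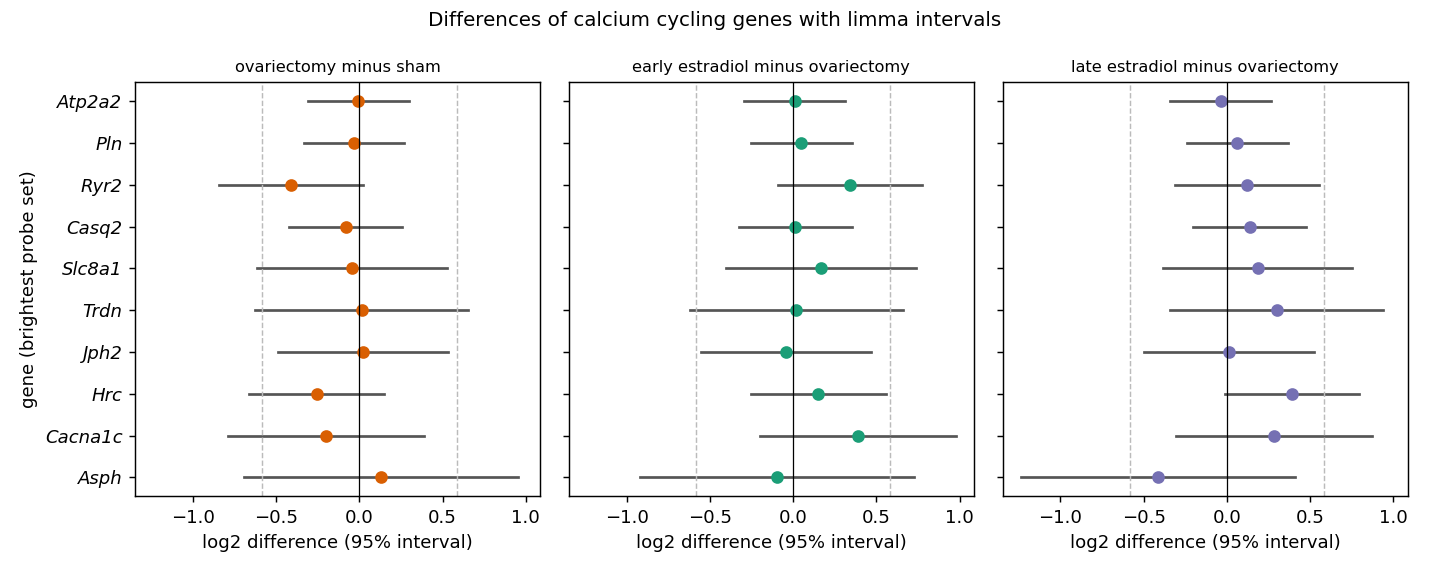
Log2 differences of group means for the brightest probe set of each gene after quantile normalization, with 95% intervals from limma, in 3 comparisons; the vertical solid line marks 0 and the dashed lines a 1.5-fold difference. Every interval includes 0, and those of Atp2a2, Pln, Casq2 and Jph2 lie inside the dashed lines in all 3 panels.

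As a list, the 10 genes lay close to the median of all 10450 genes tested. After ovariectomy their median difference from sham was -0.04, with 7 of 10 lower, against -0.02 over all genes. It was -0.01 in replicate 1 and -0.19 in replicate 2. With early estradiol the median difference from ovariectomy was 0.03, with 8 of 10 higher, and with late estradiol it was 0.13, also with 8 of 10 higher, against 0.01 and 0.00 over all genes. In replicate 1 and replicate 2 the early median was -0.06 and 0.17, of opposite sign, and the late median 0.10 and 0.19. Both comparisons share the ovariectomy arrays, of which replicate 2 was the lowest of the 8 arrays for 5 of the 10 genes (Cacna1c, Hrc, Pln, Ryr2 and Slc8a1), where it was the lowest for 13% of all genes. Without that array the median for late estradiol against ovariectomy was -0.0015, and without ovariectomy replicate 1 it was 0.27. For late estradiol against ovariectomy all 7 fibroblast markers were lower with late estradiol, from -1.72 to -0.0096, at a median difference of -1.19. Of these, 6 were lower without overlap, against 13.6% of all genes. An unadjusted p under 0.05 was found for 5 (limma), against 3.99% of all genes, and none passed. In the same comparison the median was 0.93 for 2 tested mesothelial markers. For 5 tested atrial markers it was 0.52, with 4 higher and 1 lower, but 1.31 in replicate 1 and -0.60 in replicate 2. For 8 macrophage markers it was -0.50, with 6 lower and 2 higher, and -0.49 in replicate 1 and -0.44 in replicate 2. All 7 fibroblast markers were higher after ovariectomy than in sham, at a median of 0.37. The part of these cell types in the values of the calcium genes was not tested. The median of the 10 genes was 0.01 for late against early, 0.01 for early against sham and 0.04 for late against sham.

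With 2 arrays a group, many probe sets on the array did not overlap between groups. Higher without overlap were 2 of 24 after ovariectomy against sham (11% of all probe sets), 2 with early estradiol against ovariectomy (14.7%), 0 with late against ovariectomy (15.7%), 3 for late against early (15.5%), 3 for early against sham (12.1%) and 4 for late against sham (14.5%). Lower without overlap were 1 (14.1%), 1 (12.3%), 1 (13.4%), 3 (16.3%), 3 (12.7%) and 2 (16.1%), in the same order of comparisons. These counts were at or below the share over all probe sets, or within 1 probe set of it.

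Probe sets of the same gene often differed in direction. In 7 genes with over 1 tested probe set, 14 further probe sets could be set against the brightest, and 6 to 9 of the 14 had the opposite sign, depending on the comparison. The spread followed brightness. The 11 member probe sets with a mean log2 signal at or above 9 had a median span of 0.73 between the lowest and the highest array, the 7 from 6 to 9 had 0.999, and the 6 below 6 had 1.83. Over all probe sets tested the medians were 0.54, 0.81 and 1.67 in the same ranges. The intervals were narrowest for the brightest probe sets of Atp2a2, Pln and Casq2 and widest for the dim ones.

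**Figure D4:**
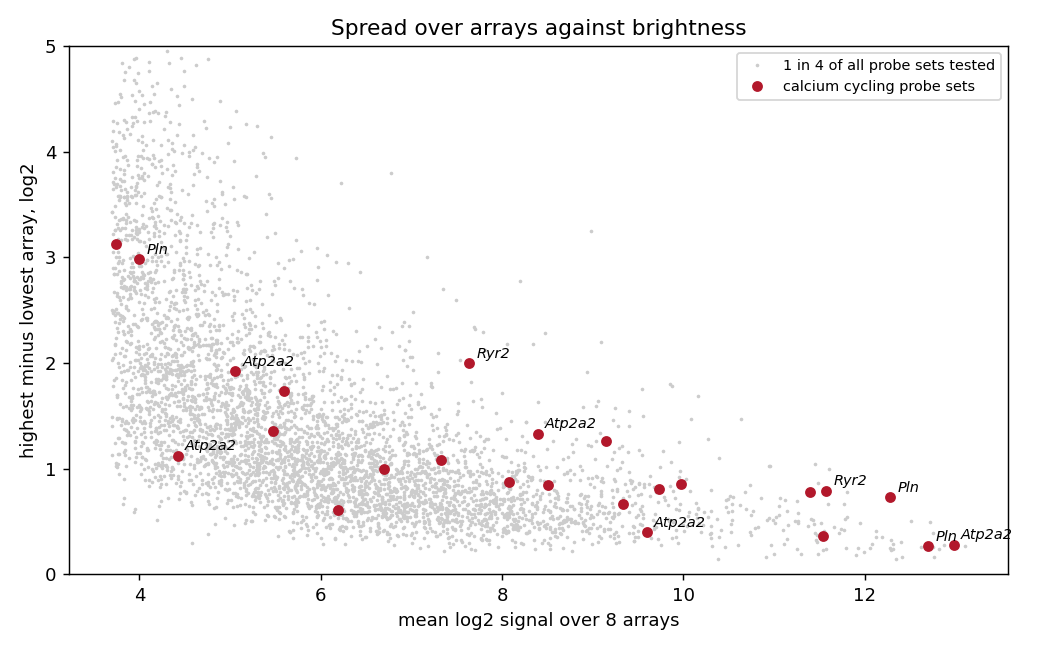
Highest minus lowest array (log2) against mean log2 signal, for the 24 tested calcium cycling probe sets (red) and 1 in 4 of all probe sets tested (grey; 22 of 4657 lie above the axis top of 5). The brightest probe sets of Atp2a2 and Pln lie at the lower right. Of their dim probe sets at the left, 1375164_at of Atp2a2 (1.92) and 1384689_at of Pln (2.98) have wide spans. The dimmest of Atp2a2, 1391771_at, has a narrower one (1.12).

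No other gene of calcium handling passed either. Of 90 listed genes, 83 were measured and 65 were tested, and 0 of 65 passed in either direction in any comparison (limma, Benjamini-Hochberg). At an unadjusted p under 0.05 there were none for ovariectomy against sham, early against ovariectomy or early against sham. In the other comparisons there were 2 of 65 for late against ovariectomy, 2 for late against early and 1 for late against sham, where 3.99%, 3.3% and 2.82% of all genes had such a p, so the counts were near the background. These 5, named after they were seen, belonged to Micu3, a regulator of mitochondrial calcium uptake (0.85 ± 0.29, late against ovariectomy), Ppp2ca, a catalytic subunit of protein phosphatase 2A (0.58 ± 0.25, late against ovariectomy), Orai3, a store-operated calcium channel (-1.03 ± 0.39, late against early), Adcy5, a cardiac adenylyl cyclase (-0.68 ± 0.29, late against early), and Ppp1r3a, a glycogen-targeting subunit of protein phosphatase 1 (-0.69 ± 0.24, late against sham).

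Among genes close to the pump, a wide range was seen for Sln, sarcolipin, the phospholamban-like inhibitor of atrial muscle. It read 3.97 and 4.65 in sham, 5.63 and 3.80 after ovariectomy, 6.76 and 4.52 with early estradiol and 6.41 and 1.96 with late estradiol. Its 2 highest arrays, replicate 1 of early and of late estradiol, were also the highest for the atrial myosin light chains Myl7, at 8.74 and 7.53 against 3.89 to 6.49 elsewhere, and Myl4, at 8.59 and 7.50 against 5.74 to 6.96. The other measured atrial markers followed only in part. Nppa was highest on late replicate 1 (11.81), but on early replicate 1 (11.06) it was below ovariectomy replicate 2 (11.46). Nr2f2 was highest on early replicate 1 (6.675), but on late replicate 1 (6.549) it was below early replicate 2 (6.565). The part of atrial tissue in the Sln values was not tested. Srl, sarcalumenin, a calcium-binding protein of the reticulum, ranged from 9.32 to 9.95.

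Among partners of the release channel, Sri (sorcin) ranged from 8.86 to 9.29 and S100a1, a calcium sensor that binds the channel and the pump, from 7.56 to 8.22. Camk2d, the main cardiac isoform of the calmodulin kinase, ranged from 9.80 to 10.64, and Tmem38a, a potassium channel of the reticulum, from 9.16 to 10.01. The junctophilin Jph1 ranged from 5.91 to 6.82 and Casq1, the skeletal calsequestrin, from 6.58 to 7.97. Fkbp1b, the calstabin of the cardiac release channel, was below the filter and ranged from 0.45 to 4.71. Of the subunits that accompany Cacna1c, Cacnb2 ranged from 7.54 to 8.25 and Cacna2d1 from 5.48 to 6.86. For both subunits, ovariectomy replicate 2 was the lowest array and ovariectomy replicate 1 the highest. None of these passed in any comparison.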

How the data were processed

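Each array's file, as deposited, holds a signal intensity on a linear scale for every probe set. The submitters' processing notes name MAS5 as the software, and no source used here gives its version or scaling. The arrays were not on a common scale. Of 31099 probe sets, 57 controls were left out, log2 values were quantile-normalized, and probe sets with a mean below the 40th percentile were not tested. Symbols were read from GEO's annotation of the platform, which gave 1 symbol to 20826 probe sets, several to 436 and none to 9780. All 10 genes were matched by Entrez number to RefSeq (GRCr8), used for names only.

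Group means were fitted over all 8 arrays with limma 3.58.1 in R 4.3.3, with an intensity trend and 4 residual degrees of freedom, and tested two-sided with Benjamini-Hochberg adjustment over 18625 probe sets at 0.05. The fit was tested on simulated data. A gene is represented by its brightest tested probe set. Every member probe set is described, with each Atp2a2 probe set given on every array. Members, lists and alternatives were chosen with earlier results of these data known. The alternatives were 3 other scalings (none, array medians, and cardiomyocyte markers, the last added after the data were seen), 32 added before the log, no filter, no trend, the replicate number as a block, a gene as the average over its probe sets, and arrays left out. The 8 arrays limit the precision. Array probes give no comparison of level between genes.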

Additional observations from a re-analysis of the deposited data

How the results depend on the processing

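No calcium cycling probe set passed in any of the 7 tests under any of the 16 alternative settings (limma), where the lowest adjusted p was 0.198, without late replicate 2, a setting with 100 probe sets called over the whole array. The median of the 10 genes moved by more than its spread between replicates as follows. On the scale of the cardiomyocyte markers the median of all genes moved too, to -0.322, 0.204, -0.206, -0.412, -0.118 and -0.53 for the comparisons in the order below. For ovariectomy against sham it was -0.17 without the 2 dimmest arrays, -0.37 scaled to the cardiomyocyte markers and -0.17 to -0.038 with 1 array left out. For early estradiol against ovariectomy it was 0.235 on the marker scale and -0.0029 to 0.20 with 1 array left out. For late against ovariectomy it was -0.033 on the marker scale, 0.021 with a gene's probe sets averaged and -0.0015 to 0.27 with 1 array left out. On the marker scale it was -0.34 for late against early and -0.10 for early against sham. For late against sham it was -0.41 on the marker scale, 0.12 relative to all genes both without normalization and with array medians centred, -0.040 without the 2 dimmest arrays and -0.043 to 0.12 with 1 array left out. Without normalization the median of all genes itself lay at -0.65 for late against sham and -0.32 for ovariectomy against sham. Of single probe sets, 1387401_at of Casq2 reversed for late against ovariectomy without the 2 dimmest arrays, at 0.075. The cause of these shifts was not tested.

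The replicate numbers are shared by the groups, and the gap between the replicates of one group correlated with that of another at r = 0.28 to 0.33 across probe sets (6 pairs of groups), but with 2 numbers only this does not show that arrays were paired. With the replicate number as a block, 0 member probe sets passed, and 5 of 144 differences (3.47%) had an unadjusted p under 0.05, against 1 without it; over all probe sets the share was 5.23% with the block and 2.59% without. The lowest adjusted p was then 0.565.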

Other observations

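Of the 5 pathway lists, the one below was singled out after its values were seen. The list of beta-adrenergic and protein kinase A control of the calcium cycle held 17 genes, of which 15 were tested. It mixes genes that carry the signal, by way of cyclic AMP, with genes that oppose it. Among the latter are phosphodiesterases such as Pde3a and Pde4d and subunits of protein phosphatase 2A such as Ppp2ca. A median of the list therefore gives no direction of signalling. With early estradiol 12 of the 15 were higher than after ovariectomy, at a median difference of 0.18 against 0.01 over all genes, and 6 were higher without overlap, where 13.1% of all genes were. By replicate number, the median was 0.10 for the first and 0.14 for the second. No gene of the list passed (limma), and none had an unadjusted p under 0.05 in that comparison. In the same comparison the mitochondrial calcium list had a median of -0.18 with 6 of 7 lower, the list of SERCA pumps and regulators 0.08, the release unit and junction 0.00 and calcium entry and exit at the cell membrane -0.01. Against sham, the median of the beta-adrenergic list with early estradiol was 0.02. With late estradiol the median difference from ovariectomy was 0.07, with 10 of 15 higher and 1 higher without overlap, against 14.9% of all genes.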
